A study of Rattus norvegicus with 8 samples.

Results

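The genes described here are the heat shock proteins and the DnaJ chaperones on the array, together with 5 stress genes of the endoplasmic reticulum (ER) and the integrated stress response. They were chosen by gene name alone: every non-control probe whose name begins with Hspa, Hspb, Hspd, Hspe, Hsph, Hsp90, Dnaja, Dnajb or Dnajc and goes on to a number, and the probes named Sdf2l1, Creld2, Xbp1, Ddit3 or Atf3. The rule found 97 probes with 77 gene names, of 30367 probes and 26269 names in all. Of the 77 names, 71 were bright enough to be tested, among 16574 genes tested.

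The study measured hypothalamic RNA of lactating Wistar rats on postpartum day 7. The groups were 4 dams exposed to TCDD (a dioxin that binds and activates the aryl hydrocarbon receptor) and 4 control dams, each measured on 1 single-colour Agilent array. The sources used here give no dose, route or timing of the exposure, no vehicle for the controls and no age of the dams. The labels name no genotype other than the strain.

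Heat shock proteins are chaperones that hold, fold and refold other proteins. HSP70 proteins work in a cycle of binding and release that DnaJ proteins (also called HSP40) start by stimulating ATP hydrolysis and that nucleotide exchange factors such as the HSP110 proteins complete, and HSP90 proteins take over many signalling clients. When unfolded proteins build up in the cytosol, heat shock factor 1 drives Hspa1b, Dnajb1, Hsph1 and related genes, whereas unfolded proteins in the ER act through Atf6, Xbp1 and the kinase Perk on Hspa5, Hsp90b1, Dnajc3, Creld2 and Sdf2l1. The aryl hydrocarbon receptor itself waits in the cytosol bound to HSP90 until a ligand such as TCDD reaches it.

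Promoter motifs named for the 2 stress pathways are shown first. The name rule read no sequence, although it took 5 stress genes by name, of which Creld2 and Xbp1 are among those found below. They come from RefSeq promoters of the rat build GRCr8, each 300 bases long (250 before and 50 after the gene start), which 58 of the 77 genes had in the table used. A heat shock element, searched on both strands as GAA, any 2 bases, TTC, any 2 bases and GAA, or as the same with TTC and GAA exchanged, lay in 5 of the 58 member promoters (8.62%), against 0.794% of the promoters of all 27457 genes. Those 5 were Dnaja1, Hspa8, Hspd1, Hspe1 and Hsph1. Only elements that end before the gene start are printed below, which leaves out the match in Dnaja1. Hspa1b, Hsp90aa1 and Atf3 were among the members without a promoter in the table used, so no motif was searched in them. In the runs below, each read on its gene's strand from 5′ to 3′, capitals mark the element.
Hspa8, chr8:50080271-50080343, + strand, element beginning 213 bases before the start: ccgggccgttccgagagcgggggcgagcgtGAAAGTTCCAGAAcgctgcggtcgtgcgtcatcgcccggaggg
Hspa8, chr8:50080429-50080501, + strand, 55 bases before the start: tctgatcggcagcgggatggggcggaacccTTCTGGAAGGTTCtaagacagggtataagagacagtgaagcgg
Hsph1, chr12:10427302-10427367, + strand, 36 bases before the start: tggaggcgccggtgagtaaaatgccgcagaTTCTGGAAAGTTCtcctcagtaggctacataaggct
Hspd1, chr9:64084259-64084287, - strand, 242 bases before the start: gcggggccTTCCGGAAGGTTCtagaaccg
Hspe1, chr9:64084254-64084282, + strand, 65 bases before the start: gcgctcggTTCTAGAACCTTCcggaaggc
The Hspd1 and Hspe1 runs overlap on opposite strands, since the 2 genes lie head to head on chromosome 9. Both elements lie inside the annotated span of Hspd1.

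The ER stress element, CCAAT and CCACG with 9 bases between them on either strand, was found in 5 of the 58 member promoters (8.62%) and in 0.0765% of all promoters, that is in 21 genes in all. The 5 were Creld2, Dnajc3, Hsp90b1, Hspa5 and Xbp1. Hsp90b1 held it in both orientations before its start, and the copy nearer to the start is printed.
Hspa5, chr3:38452943-38453015, + strand, 43 bases before the start: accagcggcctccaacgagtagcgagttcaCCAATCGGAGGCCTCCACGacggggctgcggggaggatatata
Xbp1, chr14:84604528-84604606, + strand, 65 bases before the start: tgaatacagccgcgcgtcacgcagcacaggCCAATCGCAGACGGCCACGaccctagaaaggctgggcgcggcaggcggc
Hsp90b1, chr7:23012317-23012395, - strand, 72 bases before the start: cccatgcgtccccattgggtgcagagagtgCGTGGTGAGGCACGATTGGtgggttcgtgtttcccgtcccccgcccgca
Dnajc3, chr15:102432504-102432582, + strand, 133 bases before the start: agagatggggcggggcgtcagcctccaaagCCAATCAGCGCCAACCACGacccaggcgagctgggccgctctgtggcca
Creld2, chr7:121789234-121789262, + strand, 145 bases before the start: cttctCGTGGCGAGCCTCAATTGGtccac
The Creld2 element lies inside the annotated span of Creld2 itself. The core of the dioxin response element, GCGTG on either strand, was searched after the other motifs. It lay in 53.4% of member promoters and 32.4% of all promoters. Member promoters were also richer in G and C, with a median of 61.3% against 52.3% over all genes. These matches are descriptions of letters in a window and say nothing of binding.

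Some facts of the arrays bear on all results. Between 69.31% and 73.61% of spots were well above background on the TCDD arrays and between 72.16% and 73.66% on the control arrays (2-sided exact permutation p = 0.7143, the smallest possible being 0.0286), and no spot was saturated. The 75th percentile of the processed signal lay between 806.4 and 1076.6 on the TCDD arrays and between 755.6 and 1051.1 on the control arrays (2-sided exact permutation p = 0.5714). All 4 TCDD arrays sat on one slide and all 4 control arrays on another, so that slide and exposure cannot be told apart. Of 9 hypothalamic marker genes, such as those of the neuropeptides, 8 passed the filter on low signal. The mean log2 level of 5 red blood cell genes lay between 2.76 and 3.84 on the TCDD arrays and between 1.89 and 3.56 on the control arrays, and that of 5 meningeal genes lay between -1.93 and 0.82 on the TCDD arrays and between -1.64 and -0.29 on the control arrays. The mean of 3 pituitary genes, the tested ones of 7 listed, lay between -2.40 and 2.07 on the TCDD arrays and between -4.48 and 1.93 on the control arrays. In whole tissue, fewer cells of a type and less RNA per cell cannot be told apart. All levels below are log2 signal relative to the 75th percentile of the array, so that 0 is a fairly bright spot, and a level is compared between dams, never between probes.

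No chaperone gene passed the threshold between TCDD-exposed and control dams. In limma with Benjamini-Hochberg adjustment over the 16574 genes, 0 of the 71 members passed an adjusted p of 0.05, and 4 genes passed in all (0.0241%). The smallest adjusted p of a member was 0.249, for Dnajb6. At an unadjusted p under 0.05, 5 of 71 members (7.04%) stood out, against 10.8% of all genes tested. Of the 5, 3 were higher (background 7.95%) and 2 lower (background 2.82%), so the members' share was no larger than that of the array as a whole. The median log2 fold change of the 71 members was 0.0026, with 36 above 0 and 35 below, and that of all genes was 0.0042. Without TCDD replicate 3 the members' median was -0.0393.

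The intervals, each for the brightest probe of a gene, reflect the spread between arrays of a group. They cannot take in a difference between the slides, so they do not bound the effect of the exposure itself. The 95% confidence interval of the fold lay within 1.5-fold in either direction for 62 of the 71 members (87.3%), against 85.2% of all genes, and within 1.25-fold for 52 members (73.2%), against 59.7% of all genes. The 9 members with intervals reaching past 1.5-fold were Hspa1b, Hspb1, Hsp90ab1, Atf3, Dnajc30, Dnajc16, Dnajc22, Hspb2 and Hspb3.

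**Figure D1:**
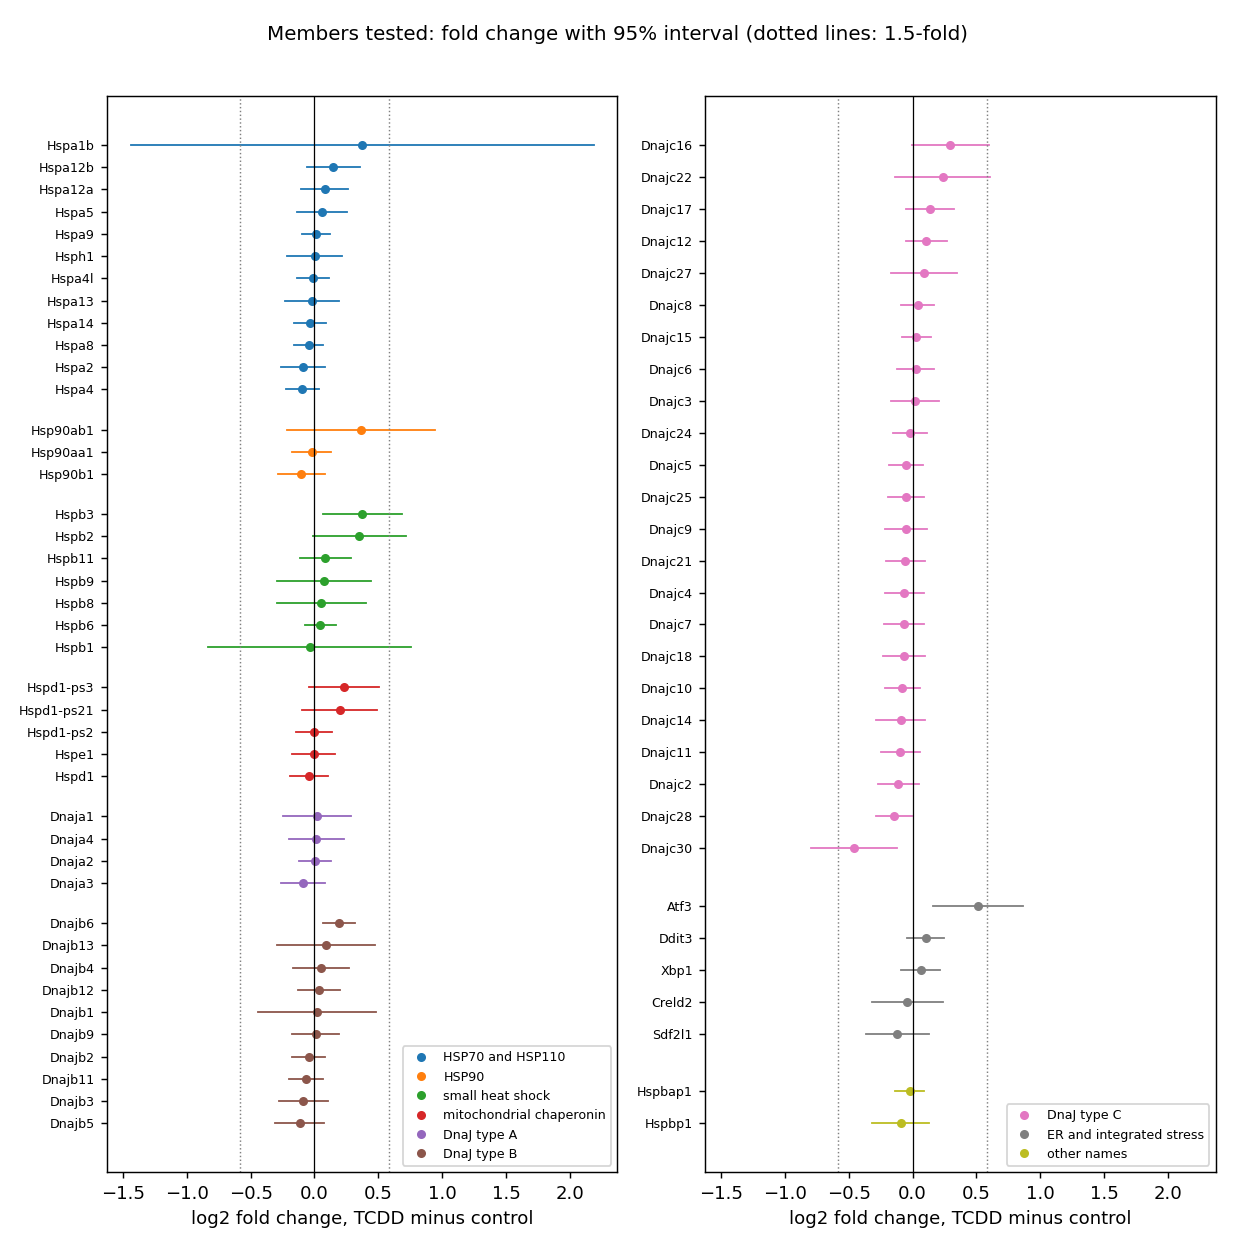
Log2 fold change (TCDD minus control) of the 71 members tested, grouped by class, with points for the estimate and lines for its 95% confidence interval (limma, n = 4 dams each). Most intervals lie inside the dotted 1.5-fold lines, and the interval of Hspa1b, -1.44 to 2.19, is by far the widest.

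The 2 best known cytosolic HSP70 genes differed in how much they varied between dams. Hspa8, the constitutive HSP70 that neurons use in folding and in uncoating clathrin vesicles, had 6.54, 6.61, 6.65 and 6.55 in the TCDD dams and 6.67, 6.61, 6.59 and 6.66 in the control dams. These 8 values spanned 1.095-fold, the groups overlapped, and the fold change was -0.04 (SE 0.05, adjusted p = 0.82, limma). All 4 probes of Hspa8 had fold changes between -0.15 and -0.04.

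Hspa1b, the stress-inducible HSP70, was the opposite. Its probe (chr20:3957864-3957923 on rn4, + strand) read -1.85, -0.50, 0.54 and -2.82 in TCDD dams of replicates 1 to 4, against -2.25, -1.78, -2.20 and 0.09 in control dams. TCDD replicate 3 and control replicate 4 were the highest of all, TCDD replicate 4 was the lowest, and the groups overlapped widely. The range over the 8 dams was 10.3-fold, and only 0.28% of genes tested had a larger spread within groups (SD 1.31 on the log2 scale). The fold change was 0.38 (SE 0.79, adjusted p = 0.921), with an interval from -1.44 to 2.19 that holds large differences either way, and without TCDD replicate 3 it was -0.19. A second Hspa1b probe was not well above background on any of the 8 arrays. The array has no probe named Hspa1a, whose coding sequence is nearly the same as that of Hspa1b, and whether the Hspa1b probe also binds its RNA was not tested.

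Of the other HSP70 genes, Hspa9, the mitochondrial mortalin, had the lowest spread of all members, with -0.41, -0.46, -0.37 and -0.37 in TCDD dams and -0.40, -0.47, -0.39 and -0.39 in control dams. Hspa4 and Hspa4l, of the HSP110 family of exchange factors, had fold changes of -0.09 (SE 0.06) and -0.01 (SE 0.05). Hspa2, a form best known from the testis, had -0.09 (SE 0.08), Hspa12a, a distant relative of HSP70, had 0.08 (SE 0.08), and Hspa13, a microsome-associated form, had -0.02 (SE 0.09). Of the 12 tested members of the class, 6 lay above and 6 below 0, with a median of -0.0042 that was 0.0259 without TCDD replicate 2 and -0.0288 without TCDD replicate 3. The SD between dams of a group was 0.134 for Hspa12b and 0.136 for Hspa13, against a median of 0.121 over all genes. Hspa1l was not well above background on any array.

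Hspa12b, an HSP70 relative of endothelial cells, had 2 probes. The brighter read -3.28, -2.96, -3.30 and -3.33 in TCDD dams and -3.46, -3.26, -3.35 and -3.40 in control dams, a fold change of 0.15 (SE 0.09) with overlapping groups. The other, well above background on 4 TCDD arrays and 2 control arrays, read -5.83, -6.04, -5.85 and -5.79 in TCDD dams and -6.45, -6.08, -6.41 and -6.07 in control dams. There every TCDD dam lay above every control dam, with a fold change of 0.37 (SE 0.11, adjusted p = 0.257 with each probe as its own feature). This probe passed the filter on low signal through the TCDD dams alone, where it was higher, so its separation cannot count as support. The mean of both probes includes it, and with that mean Hspa12b had the smallest adjusted p of the members, 0.227. The mean level of 5 endothelial marker genes lay between -0.83 and -0.64 on the TCDD arrays and between -0.98 and -0.74 on the control arrays, and its part in the Hspa12b level was not tested.

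Hsph1, the stress-inducible HSP110, had -0.25, -0.45, -0.11 and -0.48 in TCDD dams and -0.35, -0.37, -0.39 and -0.18 in control dams, with a fold change of 0.0026 (SE 0.09, adjusted p = 0.997). Its 2 highest dams were again TCDD replicate 3 and control replicate 4. Dnajb1, the stress-inducible DnaJ partner of HSP70, had 1.04, 1.36, 1.73 and 0.73 in TCDD dams and 1.20, 1.18, 1.00 and 1.41 in control dams. The same 2 dams were on top and TCDD replicate 4 at the bottom, and the group means differed by 0.02 (SE 0.20), or by -0.15 when TCDD replicate 3 was left out. Dnaja1, a farnesylated DnaJ protein of the cytosol, had 2.81, 2.72, 3.00 and 2.56 in TCDD dams, against 2.63, 2.83, 2.59 and 2.96 in control dams. Once more TCDD replicate 3 and control replicate 4 were highest, and the groups overlapped.

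This shared ranking was counted after the values had been seen. Of the 71 members, 10 (14.1%), Hspa1b included, had TCDD replicate 3 and control replicate 4 as their 2 highest dams, which held for 3.46% of all genes tested. The 10 were Hspa1b, Hspa5, Hspa14, Hsph1, Hsp90ab1, Dnaja1, Dnajb1, Dnajb5 and the pseudogene names Hspd1-ps3 and Hspd1-ps21. The ranking was taken from Hspa1b itself, and the count holds the genes in which it had been seen, so the share cannot count as support. Hsp90ab1 was counted by its brightest probe, whereas its probe at chr9:11037357-11037519 was highest in control replicates 4 and 1. Hspd1 itself did not share the ranking, its 2 highest dams being TCDD replicate 3 and control replicate 2. Among the heat shock factors and co-chaperones that the name rule does not take, Chordc1, a co-chaperone of HSP90, had 2.01, 2.10, 2.43 and 1.94 in TCDD dams and 1.82, 2.12, 1.75 and 2.54 in control dams, with the same 2 on top. Hsf2, Bag2 and Ahsa2 shared that ranking too, which made 4 of 27 genes of that list, whereas Bag3, another target of heat shock factor 1, did not. It also held for Cct3 (1 of 12 chaperonin and prefoldin genes), Crebzf (1 of 24 ER stress genes), Ppp1r15b and Cebpg (2 of 14 integrated stress response targets) and Clpp (1 of 10 mitochondrial genes). No test asked whether the ranking is more frequent among chaperones than elsewhere. Why the 2 dams differ was not tested.

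**Figure D2:**
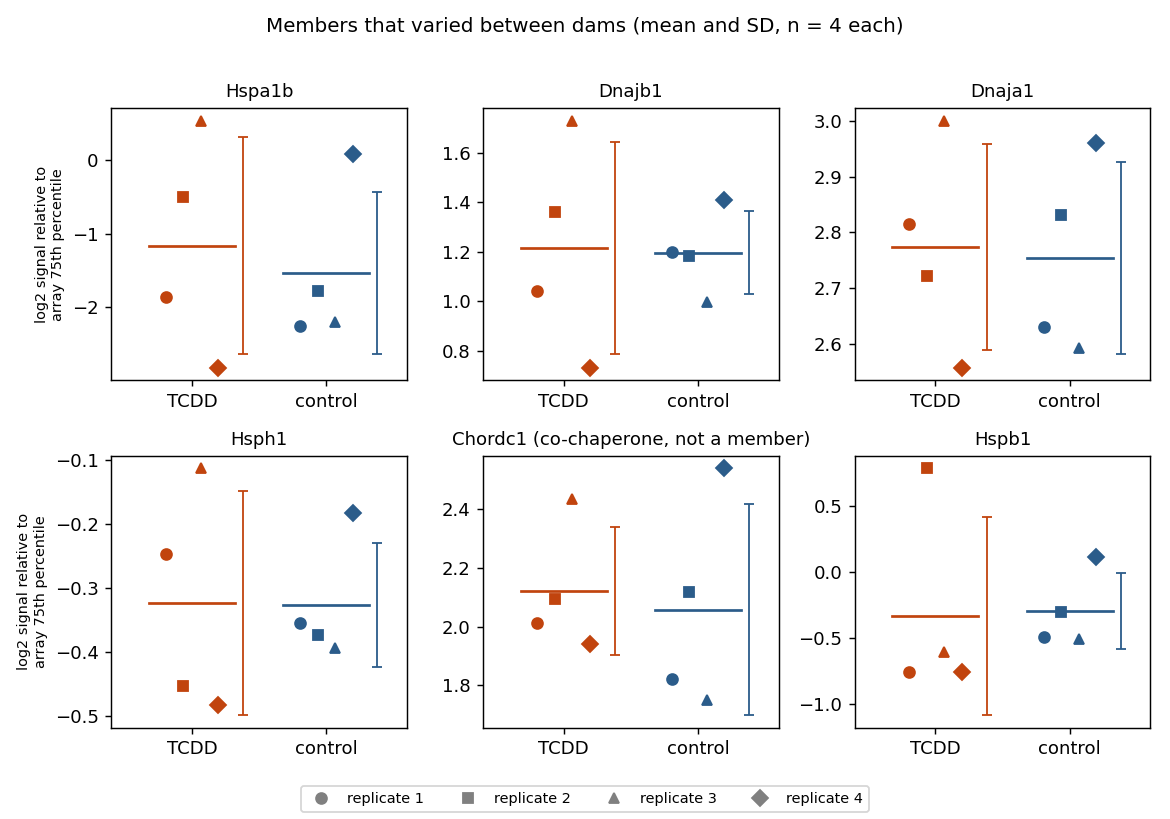
Log2 signal of 5 members and of the co-chaperone Chordc1 in each dam, TCDD on the left and control on the right, with marker shapes for replicate numbers, horizontal lines for means and bars for the SD (n = 4 each). TCDD replicate 3 and control replicate 4 are the 2 highest dams for Hspa1b, Dnajb1, Dnaja1, Hsph1 and Chordc1, whereas TCDD replicate 2 is highest for Hspb1 at 0.79.

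**Figure D3:**
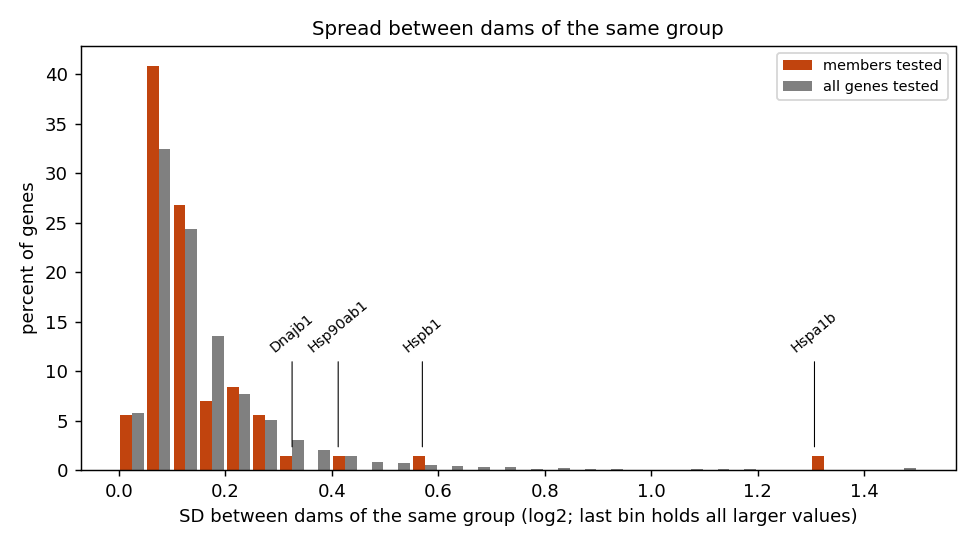
SD between dams of the same group (log2 scale) for the members tested and for all genes tested, as percent of genes in bins of 0.05. The members' median SD is 0.105 and that of all genes 0.121, and Hspa1b stands far to the right at 1.31.

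HSP90 genes encode the chaperone that binds the aryl hydrocarbon receptor before ligand arrives. Hsp90aa1, the inducible cytosolic form, had 4.48, 4.53, 4.69 and 4.44 in TCDD dams and 4.47, 4.62, 4.55 and 4.58 in control dams, with overlapping groups and a fold change of -0.02 (SE 0.07, adjusted p = 0.953). Its other 2 probes had fold changes of -0.105 (SE 0.06) and 0.11 (SE 0.09), so that its 3 probes differed in sign. The 3 probes of Hsp90ab1, the constitutive cytosolic form, differed too. Its brightest probe (chr9:11038902-11038961 on rn4) read 4.70, 5.07, 5.28 and 5.09 in TCDD dams and 3.90, 4.74, 4.93 and 5.10 in control dams, a fold change of 0.37 (SE 0.25, adjusted p = 0.691) in which control replicate 1 stood lowest. Without that array the fold change was 0.11, and over the mean of the 3 probes it was 0.077. Control replicate 1 and TCDD replicate 1 were the dimmest arrays of their groups, with 75th percentiles of the processed signal of 755.6 and 806.4. The part of array brightness in the level of this probe was not tested.

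The other 2 Hsp90ab1 probes lay upstream on the same strand, at chr9:11037357-11037519 and chr9:11038501-11038672. The first read 3.00, 2.89, 3.10 and 2.89 in TCDD dams and 3.11, 2.97, 3.09 and 3.16 in control dams. The second read 4.06, 4.06, 4.11 and 3.83 in TCDD dams and 4.06, 4.00, 4.00 and 4.07 in control dams. Their fold changes were -0.11 (SE 0.07) and -0.02 (SE 0.07), of the other sign and with much smaller spread. G and C made up 35.0% of the bases of the brightest probe and 45.0% of each of the others.

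**Figure D4:**
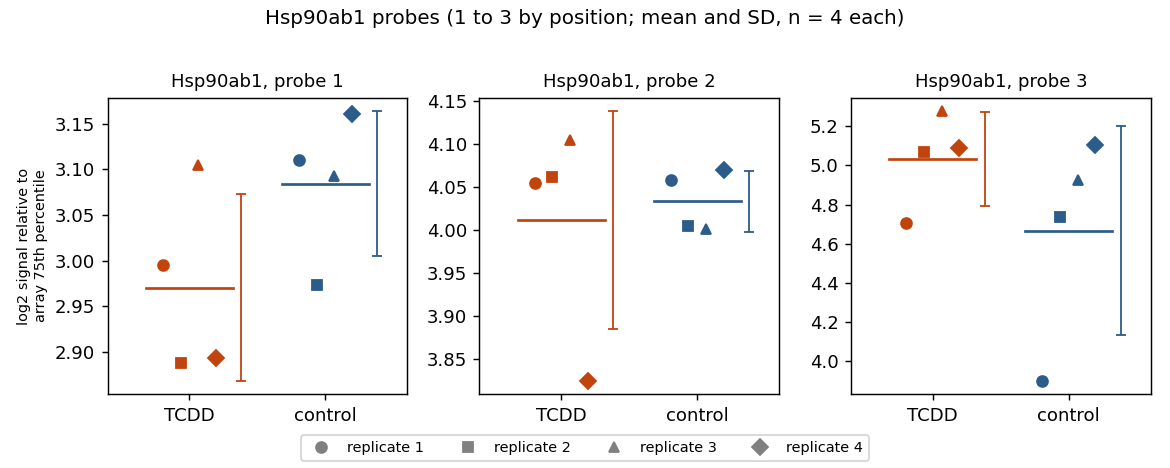
Log2 signal of the 3 Hsp90ab1 probes in each dam, numbered by position along the + strand, TCDD on the left and control on the right (lines for means, bars for the SD, n = 4 each). The brightest probe, numbered 3, spreads from 3.90 to 5.28, and the vertical axes differ between panels.

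Small heat shock proteins hold unfolded proteins without using ATP. The class was taken by gene name. It counts Hspb11, at 0.09 (SE 0.09), which is now named Ift25 and may not be such a protein. Of the 7 tested, 6 had a fold change above 0 and 1 below, with a median of 0.076, and 0 passed adjustment. That median was 0.0213 without control replicate 2 and 0.1543 without control replicate 4, and it was 0.0207 with normexp background correction, 0.0508 with quantile normalization and 0.0379 in the authors' table. Hspb3, a form best known from muscle, had -3.84, -4.16, -4.38 and -3.91 in TCDD dams and -4.37, -4.54, -4.24 and -4.63 in control dams, a fold change of 0.38 (SE 0.13) with overlapping groups and an adjusted p of 0.355. With normexp its fold change was 0.13. Hspb6, a small heat shock protein of muscle and brain, had 0.05 (SE 0.05), and Hspb8, a partner of the co-chaperone Bag3, had 0.05 (SE 0.15). Hspb7 was not well above background on any array.

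Hspb1 (HSP27), which vessels, meninges and stressed glia make, depended on single dams. It had -0.76, 0.79, -0.61 and -0.76 in TCDD dams and -0.49, -0.30, -0.51 and 0.12 in control dams. TCDD replicate 2 stood far above the other TCDD dams, and the group means differed by -0.04 (SE 0.35) with all dams and by -0.41 without that dam. On the same array the mean level of the 5 meningeal genes was 0.82, against -1.93, -1.88 and -1.80 on the other TCDD arrays. On control arrays 1 to 4 it was -1.64, -0.47, -0.38 and -0.29, an order that Hspb1 did not follow throughout. The mean of the choroid plexus genes, 2 tested of 5 listed, was 0.24, against -0.57, -1.24 and -1.11. Of these, Ttr read 1.84 on the array of TCDD replicate 2, whereas Folr1 read -1.35, close to its -1.36 in TCDD replicate 3. The part of these tissues in the Hspb1 level was not tested.

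The mitochondrial chaperonin Hspd1 (HSP60) and its lid Hspe1 (HSP10), whose promoters share the element shown above, had fold changes of -0.04 (SE 0.06) and -0.0062 (SE 0.07). Hspd1 read 3.54, 3.61, 3.77 and 3.55 in TCDD dams and 3.60, 3.72, 3.67 and 3.67 in control dams, with TCDD replicate 3 highest and the groups overlapping. The pseudogene names Hspd1-ps2, Hspd1-ps3 and Hspd1-ps21 had -0.0049, 0.23 and 0.20, and since they resemble Hspd1 closely their signals may not be their own. Neither gene nor pseudogene name passed the test.

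DnaJ proteins are sorted into types A, B and C by how much of the bacterial DnaJ they retain. All 4 of type A were tested and had a median of 0.0088. Besides Dnaja1, the class holds Dnaja2, another cytosolic partner of HSP70, with 0.0036 (SE 0.06). Type B had 10 of 12 genes tested and a median of 0.0139, which was -0.0325 without TCDD replicate 1 and -0.0303 without TCDD replicate 3. The untested type B genes were Dnajb7, at background on all arrays, and Dnajb8, well above background on 2 control arrays and 0 TCDD arrays.

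Dnajb6, a strong suppressor of polyglutamine aggregation, was the single member whose groups did not overlap (1.41% of members, against 7.05% of all genes, and 5.33% in the higher direction). It read 0.60, 0.47, 0.49 and 0.46 in TCDD dams and 0.24, 0.34, 0.32 and 0.37 in control dams (chr4:732491-732550 on rn4, - strand). Every TCDD dam lay above every control dam. The fold change was 0.19 (SE 0.05, adjusted p = 0.249), and over all the alternative settings it lay between 0.13 and 0.21 with adjusted p-values from 0.146 to 0.606. Dnajb2, enriched in neurons, had -0.04 (SE 0.06), Dnajb4 had 0.05 (SE 0.10) and Dnajb5 had -0.12 (SE 0.08).

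Type C is the largest and most varied class, and 23 of 25 genes were tested. Of these, 9 had a fold change above 0 and 14 below, with a median of -0.0516 and 2 lower at an unadjusted p under 0.05, as 2.82% of all genes were. The median moved to -0.018 when control replicate 2 was left out, to -0.0211 when TCDD replicate 2 was, and to -0.0222 with normexp. Dnajc30, a mitochondrial protein, had -5.05, -4.93, -4.55 and -5.10 in TCDD dams and -4.17, -4.48, -4.45 and -4.70 in control dams. In 3 TCDD dams the level lay below every control dam and in replicate 3 among them, and the fold change was -0.46 (SE 0.15, adjusted p = 0.303), or -0.26 with normexp. Dnajc28 had -0.15 (SE 0.06, adjusted p = 0.438).

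Dnajc5, the cysteine string protein of synaptic vesicles, had -0.05 (SE 0.06), and Dnajc6, the neuronal auxilin that brings Hspa8 to clathrin coats, had 0.03 (SE 0.06). Their intervals, -0.18 to 0.08 and -0.12 to 0.17, lie inside 1.25-fold. Dnajc15, a cochaperone of mitochondrial import, was among the 3 members of lowest spread and had 0.03 (SE 0.05). The untested type C genes were Dnajc5b and Dnajc5g, both at background on all arrays.

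Of the ER chaperones, Hspa5 (BiP), the master HSP70 of the ER, read 3.71, 3.84, 3.86 and 3.71 in TCDD dams and 3.64, 3.63, 3.66 and 3.96 in control dams. Control replicate 4 stood above all others, the other control dams lay below every TCDD dam, and the fold change was 0.06 (SE 0.09, adjusted p = 0.879). Hsp90b1 (GRP94), the HSP90 of the ER, had 2.25, 2.10, 2.36 and 2.15 in TCDD dams and 2.41, 2.28, 2.41 and 2.17 in control dams, with a fold change of -0.10 (SE 0.08). There control replicate 4 was the lowest of its group. Dnajb9, Dnajb11 and Dnajc3, which are among the DnaJ partners of BiP, had 0.0088 (SE 0.08), -0.07 (SE 0.06) and 0.02 (SE 0.08).

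Control replicate 4 was also the highest control dam for Dnajc3, Creld2, Sdf2l1 and Xbp1. Creld2, a secreted ER protein, had -0.88, -1.21, -1.10 and -1.25 in TCDD dams and -1.20, -1.16, -1.16 and -0.76 in control dams. Sdf2l1, a partner of BiP and Dnajb11, had 0.79, 0.95, 0.87 and 0.65 in TCDD dams and 1.06, 0.81, 0.73 and 1.13 in control dams. The groups of both overlapped, with fold changes of -0.04 (SE 0.12) and -0.12 (SE 0.11). Control replicate 4 was the highest of all 8 for 10 of the 71 members (14.1%), against 12.3% of all genes. On its array the mean of the 3 pituitary genes was 1.93, against -0.97, -4.48 and -1.39 on the other control arrays. The red blood cell mean was 3.56 there, against 1.91, 1.89 and 2.08. On the TCDD arrays these means reached 2.07 and 3.84. Their part in the levels of that dam was not tested.

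Among the stress transcription factors, Xbp1, which the ER sensor Ire1 activates by splicing, had 0.06 (SE 0.07), a value of total RNA that does not separate the spliced form. Ddit3 (CHOP), which acts downstream of Perk, read 2.26, 2.17, 2.32 and 2.22 in TCDD dams and 2.23, 2.20, 2.10 and 2.03 in control dams, a fold change of 0.105 (SE 0.06, adjusted p = 0.638). Atf3, a fast stress-response factor, had the largest fold change of the members in the scaling used here. It read -2.87, -2.69, -3.20 and -3.33 in TCDD dams and -3.70, -3.66, -3.49 and -3.29 in control dams. In 3 TCDD dams the level lay above every control dam, and in replicate 4 below control replicate 4. The fold change was 0.51 (SE 0.15), or 1.42-fold, with an adjusted p of 0.279 that lay between 0.175 and 0.617 over the alternative settings. With normexp its fold change was 0.30, below that of Hsp90ab1 at 0.38, and in the authors' table Dnajc30 was larger in size at -0.50. The mean level of 9 immediate early genes was -1.06, -1.30, -1.43 and -1.53 in TCDD dams, against -1.55, -1.55, -1.54 and -1.94 in control dams. Every TCDD dam lay above every control dam in that mean, by a narrow margin, and its part in the Atf3 level was not tested.

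**Figure D5:**
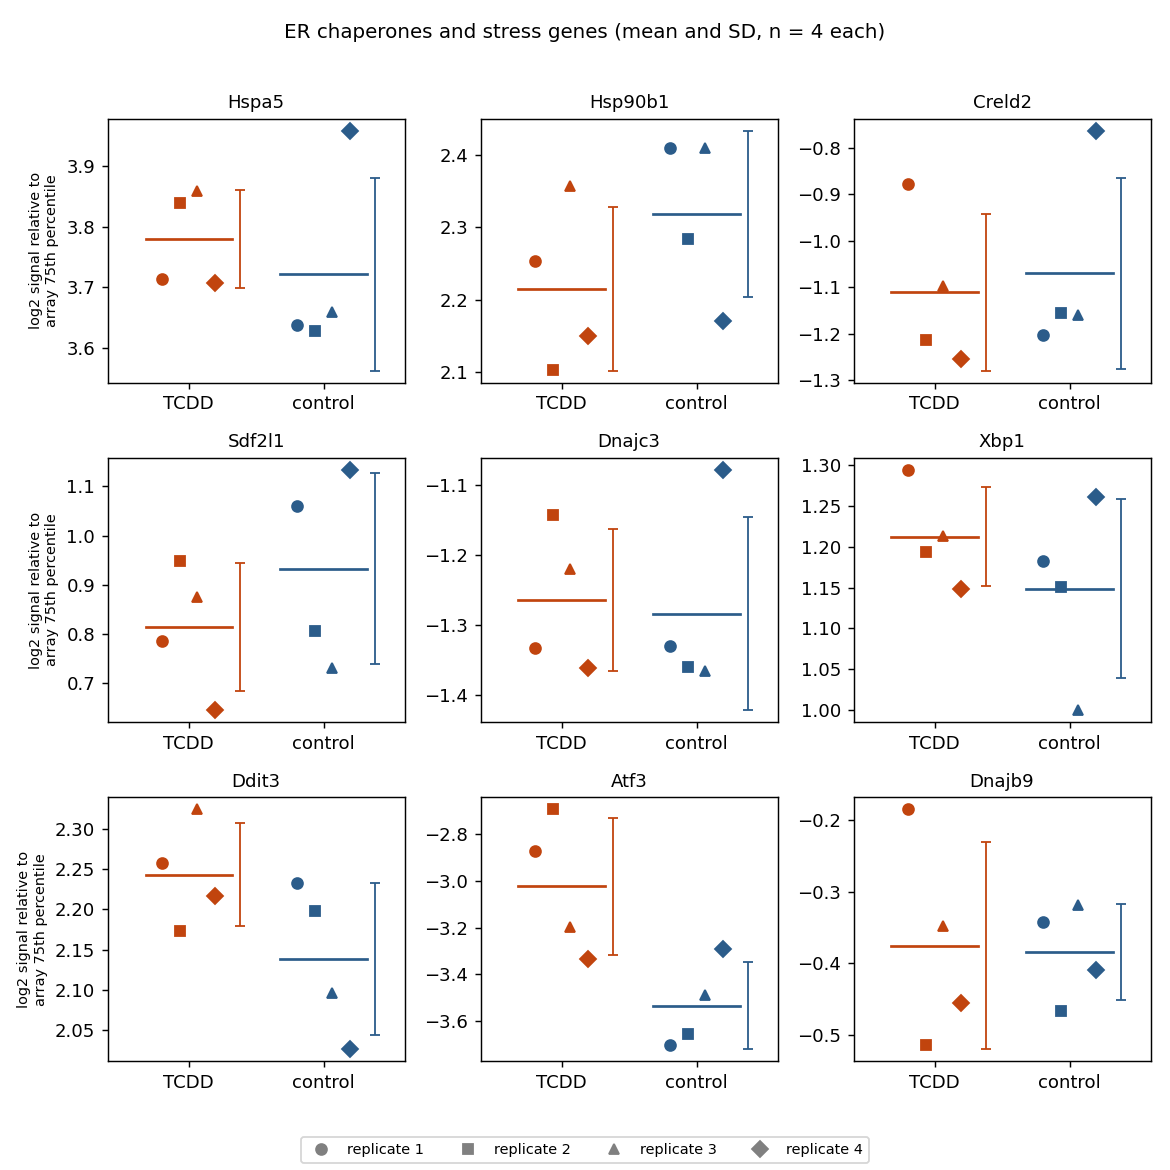
Log2 signal of 9 ER chaperone and stress genes in each dam, TCDD on the left and control on the right, with marker shapes for replicate numbers (lines for means, bars for the SD, n = 4 each). The groups overlap in all 9 panels, and control replicate 4 is the highest control dam for Hspa5, Creld2, Sdf2l1, Dnajc3, Xbp1 and Atf3.

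The genes that work with these chaperones were read from 5 lists, and 0 of their tested genes passed adjustment. Of 27 heat shock factors and co-chaperones, 6 had a fold change above 0 and 21 below, against 51.5% of all genes above 0, with a median of -0.0255 and 2 lower at an unadjusted p under 0.05 (2.82% of all genes). These were Sgta, a co-chaperone that hands over tail-anchored proteins, at -0.16 (SE 0.06, adjusted p = 0.433), and Ppid, an HSP90-bound cyclophilin, at -0.14 (SE 0.06, adjusted p = 0.447). In 2 others, the HSP90 co-chaperones Sugt1 at -0.11 (SE 0.05, adjusted p = 0.486) and Unc45a at -0.10 (SE 0.04, adjusted p = 0.475), every TCDD dam lay below every control dam, as in 1.72% of all genes. The median was -0.0598 without control replicate 3 and -0.0085 with array weights. Of 12 genes of the cytosolic chaperonin and prefoldin, 4 lay above 0 and 8 below (median -0.0329), and the chaperonin subunit Cct6a had -0.11 (SE 0.05, adjusted p = 0.446) with every TCDD dam below every control dam.

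Of 24 further ER stress genes, 10 lay above 0 and 14 below, with a median of -0.0319, and 3 had groups that did not overlap. Calr, a calcium-binding lectin chaperone, read 1.17, 1.15, 1.18 and 1.05 in TCDD dams and 1.42, 1.25, 1.31 and 1.38 in control dams, a fold change of -0.20 (SE 0.06, adjusted p = 0.236). Pdia3, the disulphide isomerase that works with Calr, had -0.17 (SE 0.06, adjusted p = 0.358), and Syvn1, the ubiquitin ligase of ER-associated degradation, had -0.21 (SE 0.06, adjusted p = 0.284). For each of these 3 genes every TCDD dam lay below every control dam, which held in that direction for 1.72% of all genes. The 14 integrated stress response targets had a median of -0.0069, with 7 on each side, and the 10 mitochondrial proteostasis genes had a median of -0.048, with 2 above 0 and 8 below, which was 0.0076 without TCDD replicate 2. The median of the ER stress genes was -0.0569 without TCDD replicate 2 and -0.0094 without TCDD replicate 4.

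The 2 remaining names that the rule takes are partners of heat shock proteins. Hspbp1, an exchange factor of HSP70, had -0.09 (SE 0.10), and Hspbap1, named for its binding to Hspb1, had -0.02 (SE 0.05).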

How the data were processed

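Hypothalamic RNA of 4 TCDD-exposed and 4 control dams was hybridised to single-colour arrays. Per the file headers, intensities of the spots were read with Agilent Feature Extraction, version 10.7.1.1, and the deposited processed signal is already background-subtracted. A table of intensities by the authors was deposited too, with equal medians of 65.1 in its columns, whose further scaling is not given in the sources used here. Across probes its correlation with the scanner values was 0.999 or more, and it served as an alternative. Probe positions are on rn4, per the file headers, without exon or UTR assignments, since an annotation of rn4 was not used.

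The 42877 non-control spots were put on a log2 scale relative to the 75th percentile of each array, and spots of a probe were averaged. Kept probes had to be well above background throughout 1 of the groups (4 of 4 arrays), and a gene was represented by its brightest probe. Groups were compared with limma 3.58.1 in R 4.3.3 (lmFit, then eBayes, 2-sided, with no term but group), with Benjamini-Hochberg adjustment over all genes tested and a threshold of 0.05. The fit was tested on simulated data. Plots were made in Python 3.11.15 with matplotlib 3.10.9. Promoters were matched by accession for 70 members and by symbol for 7.

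The members, gene lists, tests and alternatives were chosen with earlier results of these data known. Genes were named by a rule: 37 chaperones of known role, 1 of which (Hspa1a) is not on the array, members or list genes at an unadjusted p under 0.05 or whose member groups did not overlap, and the 3 members of highest and the 3 of lowest spread. Chordc1, Hsf2, Bag2, Bag3, Ahsa2, Sugt1, Unc45a, Cct3, Crebzf, Ppp1r15b, Cebpg, Clpp, Hspa12b, Hspa14, Hspb2, Hspbp1, Hspbap1, Dnajc16, Dnajc22, the Hspd1 pseudogene names and the untested genes were named after their values were seen. Hspb11 was also named after its values were seen. The labels number the dams within each group. These numbers are also the positions on the slide, and deviations from the group means of dams with the same number correlated at 0.228, -0.00309, -0.0452 and 0.103, so they were not treated as pairs. The p-values set the difference between the groups against the spread between arrays within groups, which holds no difference between the slides. The number of arrays limits the precision. Alternatives concerned the background correction (normexp, offset 50), quantile normalization, the authors' table, the filter, several probes of a gene, array weights, the variance model, a block for the replicate number, each array left out, both arrays of number 1 left out, and the percentile taken over probes. The last 2 were added after seeing the data.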

Additional observations from a re-analysis of the deposited data

Results flagged for a closer look

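Among 78 groups of 4 dams examined, 7 held a dam far from the other 3, measured as its gap to the nearest dam over the range of the group, by Dixon's ratio at its 95% critical value. Chance gives such a dam in about 1 in 20 groups. The groups examined were those of the members named by the rule above, some of which were named for their p-value or their spread. The share over all genes tested is not given here, and several of the 7 fell on the same array, so they are not independent. The count is therefore no result about the chaperones. In the TCDD group the outlying dam was replicate 2 for Hspb1, with a ratio of 0.903, at 0.79 against -0.61 in the next dam. In the control group replicate 4 was highest for Hspa4 (ratio 0.93), Hspa5 (ratio 0.906), Creld2 (ratio 0.896) and Dnajc3 (ratio 0.875). Control replicate 2 was highest for Dnajc5 (ratio 0.877) and Hspe1 (ratio 0.847).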

How the results depend on the processing

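Under every alternative run, 0 of the members passed adjustment, and the smallest adjusted p of a member was 0.146 (Dnajb6, array weights). The count of all genes that passed was 20 with normexp, 34 with the trend and robust variance model, 91 with array weights, 2 without both arrays of number 1, 0 without the filter and 0 with the replicate number as a block, the numbers not being shown to pair the dams. Leaving out single arrays gave 0 to 7, the highest without control replicate 3 and 0 without control replicates 2 or 4 or TCDD replicates 2 or 3. Members at an unadjusted p under 0.05 numbered 3 with normexp and 2 without number 1, and 3 to 7 with single arrays left out, the lowest without TCDD replicates 1 or 4. Members whose groups did not overlap numbered 2 with the authors' table, with the mean of probes and with every probe as its own feature, 6 without number 1, and 1 to 7 without single arrays, the highest without control replicate 4, fewer dams making overlap rarer. The median of the ER stress list was -0.0511 with the authors' table, that of mitochondrial proteostasis -0.0035 with normexp and -0.0009046 with array weights, and that of DnaJ type B -0.0336 without number 1. Without single arrays these medians ranged from -0.0569 to -0.0094, from -0.0645 to 0.0076 and from -0.0325 to 0.0329, and that of all members ranged from -0.0393 to 0.0084. Signs turned, mostly of fold changes near 0 but also of Hspa1b, and the cause was not tested. Normexp gave Hspa9 -0.0317, Hsp90aa1 0.0398, Hspe1 0.0509, Dnaja1 -0.0137 and Dnajc15 -0.0012. The authors' table gave Hspa9 -0.0132, Hsph1 -0.0136, Dnaja1 -0.0031, Dnaja2 -0.0009249, Dnajb9 -0.0114, Dnajc3 -0.0034 and Dnajc6 -0.0203. Leaving out number 1 gave Hsph1 -0.0322, Hspb1 0.040, Hspb8 -0.0419, Dnaja1 -0.0352, Dnajb4 -0.0022, Dnajb9 -0.0408 and Dnajc6 -0.0127. The percentile over probes gave Hspa9 -0.0039, Hsph1 -0.0112, Dnaja2 -0.0102 and Dnajb9 -0.0050. With single arrays left out, the fold changes that changed sign were those of Hspa1b from -0.1919 to 0.9306, Hspa4l from -0.0442 to 0.0063, Hspa9 from -0.0100 to 0.0285, Hspa13 from -0.0995 to 0.0274, Hsph1 from -0.0678 to 0.0555, Hsp90aa1 from -0.0741 to 0.0092. They were also those of Hspb1 from -0.4120 to 0.1042, Hspb8 from -0.0190 to 0.1937, Hspe1 from -0.0431 to 0.0531, Dnaja1 from -0.0559 to 0.0920, Dnaja2 from -0.0180 to 0.0337, Dnajb1 from -0.1523 to 0.1805, and of Dnajb4 from -0.0104 to 0.1355, Dnajb9 from -0.0546 to 0.0548, Dnajc3 from -0.0211 to 0.0877, Dnajc6 from -0.0040 to 0.0621 and Creld2 from -0.1181 to 0.0621.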
